A study of Mus musculus with 16 samples.

Results

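The glucocorticoid receptors and response genes described here are 9 genes of the 24421 gene names in the expression tables of the dentate gyrus: Nr3c1, which encodes the glucocorticoid receptor, Nr3c2, which encodes the mineralocorticoid receptor, Hsd11b1, which encodes the enzyme that regenerates active corticosterone inside cells, and 6 genes known as targets of the receptors, Fkbp5, Sgk1, Tsc22d3, Zbtb16, Sult1a1 and Plin4. They were chosen by gene name, as known parts of corticosteroid signalling, with earlier results of these data known. Each name had a single entry in each table. All 9 were above the filter on low values (a mean of 0.1 TPM) and were therefore among the 17317 genes tested.

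The dentate gyrus was dissected from male C57BL/6 mice of 1 year of age, which were p16Ink4a +/+ (p16 WT) or p16Ink4a -/- (p16 KO), and which were either sedentary (CTL) or had free access to a running wheel for 12 days (RUN). RNA-seq libraries numbered 4 for each of p16 WT CTL, p16 WT RUN, p16 KO CTL and p16 KO RUN, 16 in all, and each library was made from the pooled tissue of 2 animals. The p16 KO allele is a germline deletion present in all cells, made in FVB mice and bred into C57BL/6, and by the study's methods it leaves p19Arf functional. The study asked which genes differ with p16 ablation and with running in the neurogenic niche of aging mice. The spread given below is that between libraries of pooled animals. These are bulk samples, in which fewer cells of a type and less RNA per cell cannot be told apart.

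Corticosterone, the main glucocorticoid of the mouse, is secreted by the adrenal gland with a daily rhythm and in response to stress and to exercise, and it enters the brain freely. In the hippocampus it meets a pair of receptors: the mineralocorticoid receptor, which binds it with high affinity and is largely occupied at rest, and the glucocorticoid receptor, which binds it less tightly and is occupied at the daily peak and under stress. Both are held in the cytoplasm by a chaperone complex that includes Hsp90 and, once bound to hormone, move to the nucleus and bind the same palindromic DNA elements. The dentate gyrus expresses both receptors strongly, and its granule neurons depend on corticosteroids for survival.

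The response element is visible in the promoter of Sgk1, which encodes a kinase that regulates ion channels and transporters. The core ACANNNTGT and the hexamer TGTTCT were searched on both strands in the RefSeq promoter windows (GRCm38.p6, 250 bases before to 50 bases after each start), of which 14 belonged to 7 of the 9 genes. Nr3c1 and Zbtb16 had no entry. The core was present in 2 of the 14 windows, both of Sgk1, beside 6.85% of all 32851 windows, and the hexamer in 5 of 14 beside 19.0% of all windows. A core can overlap a hexamer, and is then counted under both. In a single window of the 14, pairs of hexamers faced each other over 3 bases, an arrangement found in 3 of the 32851 windows. The stretches around the matches in both Sgk1 windows with a core, and in the Tsc22d3 window with a hexamer, are shown as examples of a pair of facing hexamers, a core alone and a lone hexamer, the last being common among all windows. Letters in capitals mark the core or the hexamer.
Sgk1, chr10:21993640-21993748, + strand: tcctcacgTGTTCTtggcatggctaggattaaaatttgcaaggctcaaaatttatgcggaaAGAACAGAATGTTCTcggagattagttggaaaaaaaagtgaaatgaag
Sgk1, chr10:21978515-21978583, + strand: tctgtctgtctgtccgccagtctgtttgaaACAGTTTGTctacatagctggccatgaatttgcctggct
Tsc22d3, chrX:140600669-140600737, - strand: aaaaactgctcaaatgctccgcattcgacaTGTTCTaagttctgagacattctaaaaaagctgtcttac

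In the first of these the core starts 186 bases before an internal start site of Sgk1, with hexamers at 242, 189 and 180 bases before it. In the second the core starts 127 bases before another internal start. Both lie inside the Sgk1 gene (chr10:21882184-21999903 in GENCODE vM21) and overlap no annotated exon of it, so they are intronic to its longer transcripts. The Tsc22d3 hexamer starts 185 bases before the start of a transcript, outside the annotated gene. Sult1a1 had hexamers 212 and 34 bases before its start. The windows of Nr3c2, Hsd11b1, Fkbp5 and Plin4 held neither sequence, which says only that these letters are not in these windows. A match is a description of the sequence and no binding was measured.

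The 9 genes lie on 8 chromosomes (mm10, as the tables give them): Nr3c2 at chr8:76902508-77243639 and Sgk1 at chr10:21882184-21999902 on the + strand, and on the - strand Hsd11b1 at chr1:193221641-193264045, Fkbp5 at chr17:28398753-28486149, Plin4 at chr17:56100591-56109802, Zbtb16 at chr9:48654297-48835945, Sult1a1 at chr7:126672870-126676357, Tsc22d3 at chrX:140539529-140600522 and Nr3c1 on chromosome 18. The most abundant of the 9 transcripts over all libraries was Nr3c2, with a mean of 126 TPM (a level scaled to transcript length and to the total of the library), which ranked 1676 of 24421. It was followed by Fkbp5 at 72.9 TPM, Hsd11b1 at 69.3, Sgk1 at 64.6, Tsc22d3 at 54.0, Zbtb16 at 51.5, Nr3c1 at 39.7, Sult1a1 at 12.3 and Plin4 at 1.10 TPM. Neighbours in this order from Fkbp5 to Zbtb16 overlapped between libraries, since Fkbp5 ranged from 48.5 to 87.1 TPM and Zbtb16 from 37.6 to 72.8 TPM. Nr3c1, below them, overlapped Zbtb16 as well, with 32.3 to 45.8 TPM. Nr3c2 stood higher: the lowest Nr3c2 library, at 95.2 TPM, was above every library of every other member except 1 library each of Hsd11b1 and Sgk1. The highest Plin4 library, at 2.63 TPM, was below every library of the other genes.

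**Figure D1:**
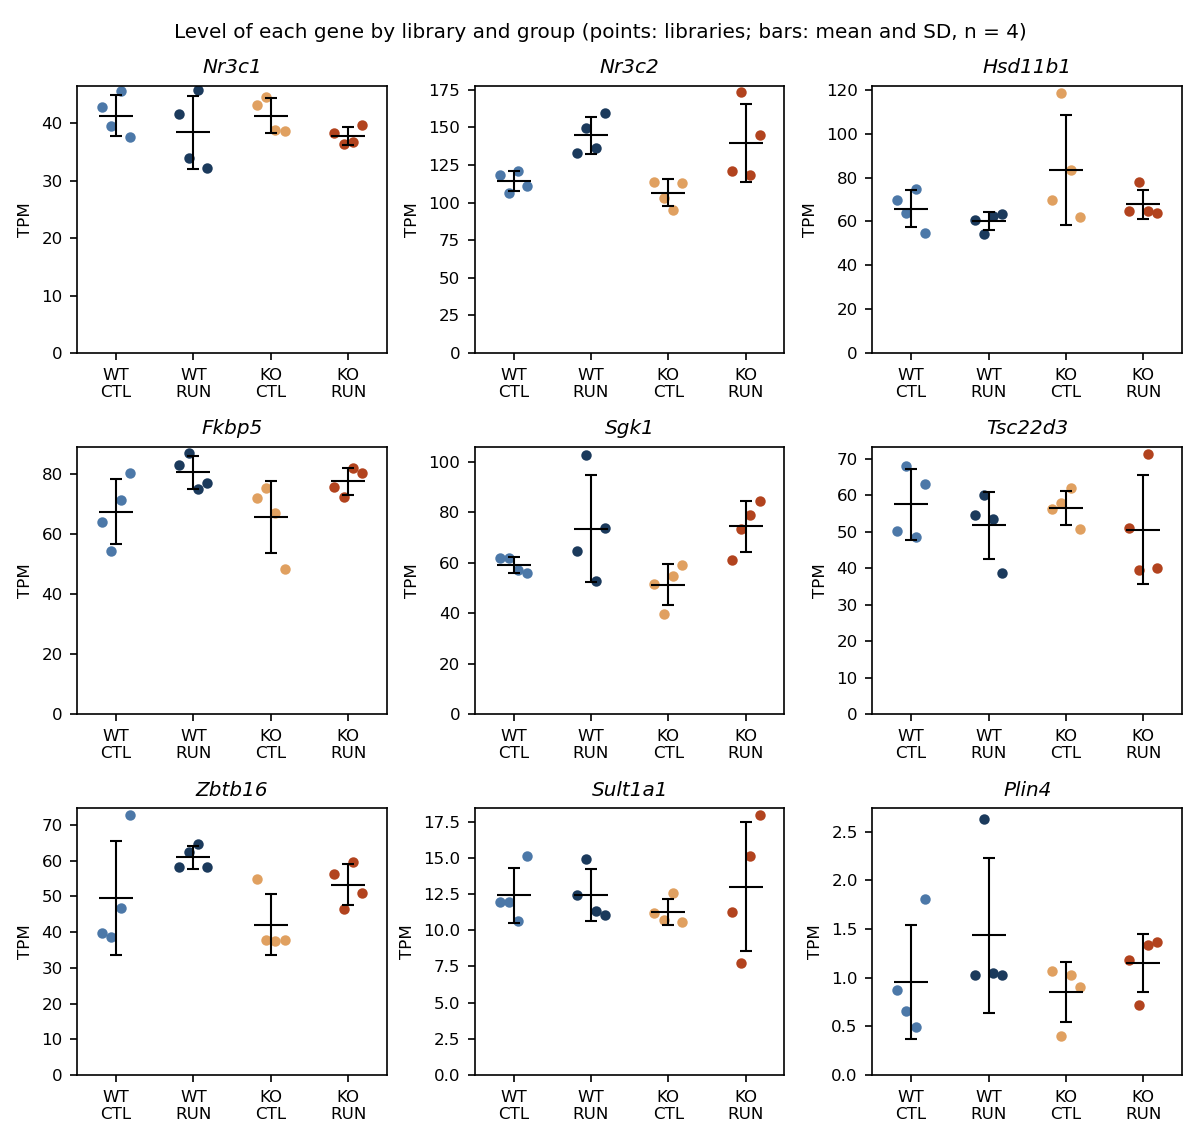
Level of each of the 9 genes in TPM (vertical axis, from 0) in the 16 libraries of the 4 groups (horizontal axis); points are libraries and bars the mean and SD of 4 libraries. Nr3c2 was higher in every RUN library than in every CTL library of the same genotype, from 133 against at most 121 TPM in p16 WT and from 118 against at most 114 TPM in p16 KO.

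Running was compared with a sedentary life in p16 KO mice (Set A), in p16 WT mice (Set C) and as the mean of both effects over the 16 libraries. With running in both genotypes, 5 of the 9 genes passed an unadjusted p of 0.05 in limma, 4 higher (Nr3c2, Sgk1, Zbtb16 and Fkbp5) and 1 lower (Nr3c1), where 17.9% of all genes tested passed it (9.87% higher and 8.02% lower). In Set A 4 of 9 passed, 3 higher (Sgk1, Nr3c2 and Zbtb16) and 1 lower (Nr3c1), beside 18.5% of all genes (10.7% higher and 7.74% lower). In Set C 2 of 9 passed, both higher (Nr3c2 and Fkbp5), beside 4.81% of all genes (2.69% higher). None of the 9 passed an adjusted p of 0.05 in limma in any comparison. That adjusted threshold was passed by 130 genes (0.751%) with running in both genotypes, by 3 genes (0.0173%) in Set A, by 1 gene (0.00577%) in the genotype comparison of runners and by none in Set C, where 833 genes passed unadjusted. With running in both genotypes the number was 0 without the 3 libraries low in nuclear RNA described further on and 8 without the 3 low in clock RNA. It ranged from 38 to 417 with each library left out. In Set A it was 177 without p16 KO CTL replicate 5 and 0 without replicate 6, 7 or 8. The median log2 fold change of the 9 genes was 0.22 with running in both genotypes, beside 0.013 over all genes. The running effect did not pass the unadjusted threshold as a difference between the genotypes (the interaction) for any of the 9 genes, beside 5.48% of all genes.

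Nr3c2, the high-affinity receptor, was higher after running in both genotypes. In p16 WT CTL its levels were 119, 106, 121 and 111 TPM, and in p16 WT RUN 133, 150, 136 and 160 TPM. In p16 KO CTL they were 114, 103, 95.2 and 113 TPM, and in p16 KO RUN 121, 174, 118 and 145 TPM. In both genotypes the RUN libraries lay above all CTL libraries without overlap, a separation in the same direction in Sets A and C that 0.664% of all genes tested had and that none of the other 8 genes had. In Set C alone 3.34% of all genes were separate. The difference was 0.33 on the log2 scale in p16 WT (SE 0.075, adjusted p = 0.937 in limma) and 0.31 in p16 KO (SE 0.122, adjusted p = 0.242 in limma). In each an exact permutation test gave p = 0.0286, the smallest that 4 against 4 libraries allow, beside limma p = 0.00176 in p16 WT and p = 0.0316 in p16 KO. Over both genotypes Nr3c2 was 1.25-fold higher (log2 0.32, 95% interval 0.16 to 0.48, adjusted p = 0.0633 in limma). The exact permutation of running within genotype gave p = 0.000408 (limma p = 0.000711), the smallest that its 4900 splits allow. This difference over both genotypes was past the threshold without any single library and was 0.20 to 0.29 without the sets of 3 libraries described further on. In Set A alone the call was lost without p16 KO CTL replicate 5, 6 or 7 or p16 KO RUN replicate 14 or 16 (log2 0.19 to 0.32), and without either set of 3 libraries (0.26 and 0.19).

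Nr3c1, the lower-affinity receptor, was slightly lower after running. Its levels were 42.8, 39.4, 45.5 and 37.5 TPM in p16 WT CTL and 41.6, 34.0, 45.8 and 32.3 TPM in p16 WT RUN. They were 43.1, 44.5, 38.8 and 38.6 TPM in p16 KO CTL and 38.2, 36.3, 36.8 and 39.8 TPM in p16 KO RUN. The groups overlapped in both genotypes on the deposited TPM. After scaling of the libraries, the p16 KO RUN libraries lay below all p16 KO CTL libraries, beside 10.0% of all genes without overlap in either direction there on the deposited TPM. Nr3c1 fell by 0.16 on the log2 scale over both genotypes (SE 0.0657, limma p = 0.0278, adjusted p = 0.226, exact permutation p = 0.0335) and by 0.19 in Set A (SE 0.0643, limma p = 0.0157, adjusted p = 0.214, exact permutation p = 0.0286). In Set C the difference was -0.13 (exact permutation p = 0.314). It ranged from -0.21 to -0.055 with a library left out, the latter without p16 WT RUN replicate 12, and was called in none of these fits. On the TPM without scaling neither call held: the difference was -0.12 over both genotypes and -0.12 in Set A. A joint fit of the 4 groups also lost the Set A call. Without the 3 libraries low in nuclear RNA described further on both calls were lost (-0.13 in each), as was that over both genotypes, at -0.066, without the 3 low in clock RNA. The call over both genotypes was also lost without p16 WT CTL replicate 1 or 3, p16 KO CTL replicate 6, or p16 WT RUN replicate 10 or 12 (log2 -0.15 to -0.12).

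The ratio of the receptors' levels, Nr3c2 to Nr3c1, was examined after their values had been seen and is given without a test. It was 2.77 ± 0.139 (SD, n = 4) in p16 WT CTL and 3.88 ± 0.951 in p16 WT RUN. In p16 KO it was 2.59 ± 0.267 in CTL and 3.70 ± 0.754 in RUN. The lowest ratio in any RUN library was 2.971 and the highest in any CTL library was 2.967, so that these were all but touching. The spread was larger among runners, where p16 WT RUN replicates 10 and 12 reached 4.41 and 4.95 and p16 KO RUN replicate 14 reached 4.78.

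**Figure D2:**
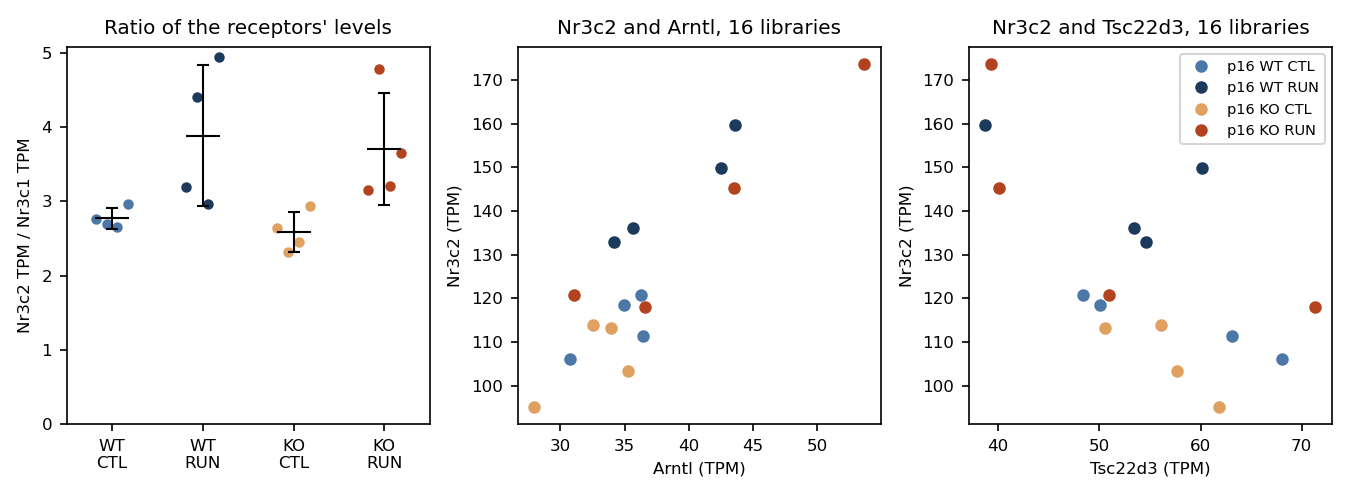
Ratio of Nr3c2 to Nr3c1 levels (no unit) by group, with libraries as points and the mean and SD of 4 as bars (left), and Nr3c2 in TPM against Arntl (middle) and Tsc22d3 (right) in TPM, with 1 point a library coloured by group. The libraries highest in Nr3c2, p16 KO RUN replicate 14 at 174 TPM and p16 WT RUN replicate 12 at 160 TPM, had 53.7 and 43.6 TPM of Arntl and 39.3 and 38.7 TPM of Tsc22d3.

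Hsd11b1, which raises the corticosterone available to the receptors inside cells, had 69.97, 63.7, 74.7 and 54.9 TPM in p16 WT CTL and 60.8, 54.4, 62.4 and 63.2 TPM in p16 WT RUN. It had 69.8, 119, 83.5 and 62.1 TPM in p16 KO CTL and 64.8, 77.9, 64.9 and 63.7 TPM in p16 KO RUN. The sedentary p16 KO libraries covered the widest range, and the groups overlapped in both running comparisons. The difference with running was -0.23 over both genotypes (SE 0.117, limma p = 0.0679, exact permutation p = 0.0853) and did not pass the threshold. It passed without p16 WT CTL replicate 4, p16 KO CTL replicate 5 or 8 or p16 KO RUN replicate 14 (log2 -0.30 to -0.27), and was -0.13 without p16 KO CTL replicate 6. In Set A it was -0.33, ranged from -0.46 without p16 KO CTL replicate 8, then past the threshold, to -0.13 without replicate 6, and was 0.019 without the 3 libraries low in nuclear RNA described further on, which include both p16 KO CTL libraries highest in Hsd11b1. Hsd11b2, the enzyme that inactivates corticosterone, was at most 0.204 TPM in any library.

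Fkbp5, a co-chaperone that lowers the receptor's affinity for hormone and is itself a sensitive target of the receptor, was higher after running. Its levels were 64.0, 54.4, 71.5 and 80.2 TPM in p16 WT CTL and 83.1, 87.1, 75.1 and 77.1 TPM in p16 WT RUN. They were 71.9, 75.4, 67.1 and 48.5 TPM in p16 KO CTL and 75.7, 72.3, 81.9 and 80.5 TPM in p16 KO RUN. The runners lay in the upper part of the sedentary range or above it, and the groups overlapped in both genotypes. Over both genotypes Fkbp5 was 1.17-fold higher (log2 0.22, SE 0.087, limma p = 0.0212, adjusted p = 0.207, exact permutation p = 0.0188), a call that held without any single library but not, at 0.21, without the 3 low in clock RNA. In Set C the difference was 0.25 (SE 0.0987, limma p = 0.0294, adjusted p = 0.985, exact permutation p = 0.0857), a call lost without p16 WT CTL replicate 1 or 2 or p16 WT RUN replicate 9 or 10 (log2 0.18 to 0.24). In Set A it was 0.19 (limma p = 0.175, exact permutation p = 0.200), and 0.050 without p16 KO CTL replicate 8.

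Sgk1 had 61.9, 61.8, 57.0 and 55.9 TPM in p16 WT CTL and 64.7, 103, 52.8 and 73.6 TPM in p16 WT RUN. It had 51.7, 39.8, 54.8 and 59.0 TPM in p16 KO CTL and 61.1, 73.3, 78.8 and 84.6 TPM in p16 KO RUN. In p16 KO the RUN libraries lay above all CTL libraries on the deposited TPM, as for 10.0% of all genes in either direction, but overlapped after scaling. Sgk1 was 1.39-fold higher in Set A (log2 0.47, SE 0.135, limma p = 0.00634, adjusted p = 0.175, exact permutation p = 0.0571), a call that held without any single library. In p16 WT the groups overlapped, and the difference was 0.26 (limma p = 0.194, exact permutation p = 0.343). It was 0.41 and past the threshold without p16 WT RUN replicate 11, and 0.072 without p16 WT RUN replicate 10. Over both genotypes Sgk1 was 1.29-fold higher (log2 0.37, SE 0.123, limma p = 0.00910, adjusted p = 0.155, exact permutation p = 0.0171), a call that held without any single library but was lost, at 0.21, without the 3 libraries low in clock RNA described further on. The difference between the running effects was 0.22 (95% interval -0.30 to 0.74, adjusted p = 0.847 in limma). It was 0.065 without p16 WT RUN replicate 11 and 0.40 without p16 WT RUN replicate 10. In the coverage column of the tables the Sgk1 entry was at 0.131 to 0.136 of what its FPKM implied, relative to the typical gene. Tsc22d3 was at 0.708 to 0.731 and Hsd11b1 at 0.933 to 0.937, and the other members were close to 1. How reads were divided among the transcripts of these genes was not tested.

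Zbtb16, a transcriptional repressor induced by glucocorticoids in many tissues, had 39.8, 38.8, 46.8 and 72.8 TPM in p16 WT CTL and 58.2, 62.5, 64.7 and 58.2 TPM in p16 WT RUN. It had 54.8, 37.9, 37.6 and 37.8 TPM in p16 KO CTL and 56.1, 46.6, 59.7 and 50.8 TPM in p16 KO RUN. In each sedentary group 1 library, p16 WT CTL replicate 4 and p16 KO CTL replicate 5, stood above the other 3 and overlapped the runners. Over both genotypes Zbtb16 was 1.24-fold higher (log2 0.31, SE 0.108, limma p = 0.0111, adjusted p = 0.164, exact permutation p = 0.0208), and the call held without any single library but not, at 0.23, without the 3 low in nuclear RNA. In Set A the difference was 0.29 (SE 0.116, limma p = 0.0336, adjusted p = 0.248, exact permutation p = 0.0857), a call lost without p16 KO CTL replicate 6, 7 or 8 or p16 KO RUN replicate 13 or 15 (log2 0.23 to 0.27). In Set C it was 0.33 (limma p = 0.0730, exact permutation p = 0.143), and 0.52 and past the threshold without p16 WT CTL replicate 4.

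Tsc22d3, which encodes the glucocorticoid-induced leucine zipper protein GILZ, an inhibitor of inflammatory transcription factors, was not called in any comparison. Its levels were 50.1, 68.0, 48.4 and 63.1 TPM in p16 WT CTL and 54.6, 60.1, 53.4 and 38.7 TPM in p16 WT RUN. They were 56.1, 57.7, 61.8 and 50.6 TPM in p16 KO CTL and 51.0, 39.3, 71.4 and 40.1 TPM in p16 KO RUN. The difference over both genotypes was -0.22 (95% interval -0.50 to 0.06, limma p = 0.114, exact permutation p = 0.141). Runners covered a wider range than sedentary mice in p16 KO, and the highest of the 16 libraries, p16 KO RUN replicate 15, was among them. In Set A the difference was -0.27 (limma p = 0.167, exact permutation p = 0.257). Without replicate 15 it was -0.45 in Set A and -0.31 over both genotypes, both past the threshold. The smallest values without another library were -0.17 in Set A (p16 KO RUN replicate 16) and -0.15 over both genotypes (p16 WT RUN replicate 12).

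Sult1a1, a sulfotransferase, ranged from 10.7 to 15.1 TPM in p16 WT CTL, 11.1 to 14.9 TPM in p16 WT RUN, 10.6 to 12.5 TPM in p16 KO CTL and 7.74 to 17.9 TPM in p16 KO RUN. The 4 groups overlapped, and the difference with running was 0.035 (95% interval -0.26 to 0.33, exact permutation p = 0.817). Plin4, a lipid droplet coat protein, ranged from 0.497 to 1.81 TPM in p16 WT CTL, 1.03 to 2.63 in p16 WT RUN, 0.405 to 1.07 in p16 KO CTL and 0.718 to 1.37 TPM in p16 KO RUN. Its difference with running was 0.46 (95% interval -0.13 to 1.05, limma p = 0.116, exact permutation p = 0.127), and 0.62 and past the threshold without p16 WT CTL replicate 4. It was 0.30 without p16 WT RUN replicate 10. At these low levels the interval covered both a small fall and a 2-fold rise.

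**Figure D3:**
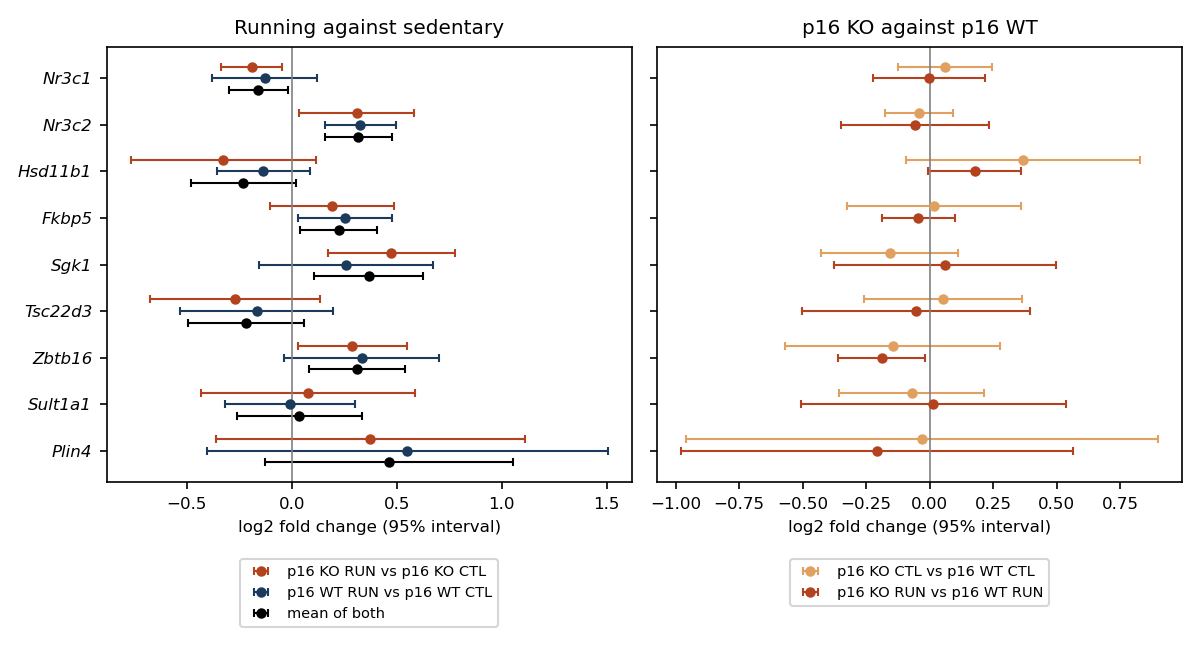
Log2 fold change of the 9 genes (horizontal axis, with 95% interval from limma) for running against sedentary in p16 KO, in p16 WT and as the mean of both (left) and for p16 KO against p16 WT in sedentary mice and in runners (right). For Nr3c2, Sgk1, Zbtb16, Fkbp5 and Nr3c1 the interval of the mean running effect leaves out 0, and of the genotype differences only that of Zbtb16 in runners does (-0.36 to -0.018).

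None of the 9 genes passed an unadjusted limma p of 0.05 between sedentary p16 KO and p16 WT mice (Set B), beside 6.69% of all genes, and none of the 17317 genes passed an adjusted p of 0.05 there, where 1158 passed unadjusted. The largest difference in Set B was that of Hsd11b1 at 0.37 (95% interval -0.093 to 0.83, limma p = 0.104, exact permutation p = 0.257), which passed without p16 KO CTL replicate 8 (log2 0.50). It was 0.18 without p16 KO CTL replicate 6 and 0.037 without the 3 libraries low in nuclear RNA. The 95% intervals were -0.18 to 0.088 for Nr3c2 and -0.13 to 0.24 for Nr3c1. Between the genotypes in runners (Set E) 1 of 9 passed, and lower in p16 KO, beside 3.87% of all genes (1.76% lower). This was Zbtb16, at 53.3 ± 5.77 TPM in p16 KO RUN and 60.9 ± 3.25 TPM in p16 WT RUN (SD, n = 4 each), which fell by 0.19 on the log2 scale (SE 0.076, limma p = 0.0339, adjusted p = 1.00, exact permutation p = 0.0857). That call was lost without p16 WT RUN replicate 10 or 11 or p16 KO RUN replicate 14 or 16 (log2 -0.17 to -0.14), and, at -0.13, without the 3 low in clock RNA. Hsd11b1 in p16 KO RUN lay above all p16 WT RUN libraries on the deposited TPM, as did 2.49% of all genes in either direction, though not after scaling. The difference was 0.18 (limma p = 0.0562, exact permutation p = 0.0571), and 0.21 and past the threshold without p16 WT RUN replicate 12 or p16 KO RUN replicate 16. It was 0.098 without p16 KO RUN replicate 14. Sets A, B, C and E share libraries in pairs, so their values are given side by side. Cdkn2a, the gene that holds the deleted p16Ink4a exon and also encodes p19Arf, was at most 0.586 TPM in any library of any group and did not tell the genotypes apart.

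Between libraries of the same group, some of the 9 genes varied together. With the mean of each group subtracted, 36 pairs were compared over the 16 libraries. Sult1a1 and Plin4 varied together (Pearson r = 0.66, permutation p = 9.0e-04, adjusted p = 0.0324, Spearman rho = 0.64, permutation p = 0.00661, adjusted p = 0.119). Hsd11b1 and Plin4 varied oppositely (r = -0.71, permutation p = 0.00274, adjusted p = 0.0493, rho = -0.71, permutation p = 0.00559, adjusted p = 0.119). Without the pair of libraries farthest from the median of the first gene r was 0.73 and -0.74. Neither passed the adjusted threshold by rank. Nr3c2 and Tsc22d3 gave r = -0.68 (permutation p = 0.0321, adjusted p = 0.274, rho = -0.64, permutation p = 0.0362, adjusted p = 0.261), and r = -0.56 without the farthest pair. The libraries share their scaling, and Plin4 is near the low end of what was measured.

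The gene whose pattern over the 16 libraries was most like that of Nr3c2 among 14438 genes, group means subtracted, was Arntl (r = 0.90), which encodes the clock activator BMAL1. The highest likeness for Fkbp5 was with Dgat2 (0.87), Stat3 (0.87) and Klf9 (0.86), for Sgk1 with Trip10 (0.92), E2f3 (0.91) and 2810468N07Rik (0.91), and for Nr3c1 with Zfp553 (0.91), Bcl7b (0.90) and Pdrg1 (0.89). For Zbtb16 it was with Ptchd2 (0.90), for Hsd11b1 with Utp11l (0.89), for Tsc22d3 with Mlec (0.86), for Sult1a1 with Sh3gl3 (0.85) and for Plin4 with Xdh (0.86). These are the highest of many values over 16 libraries and are given as a description.

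Arntl ranged from 30.7 to 36.4 TPM in p16 WT CTL and from 28.0 to 35.3 TPM in p16 KO CTL, and reached 42.5 and 43.6 TPM in p16 WT RUN replicates 10 and 12 and 53.7 and 43.5 TPM in p16 KO RUN replicates 14 and 16. Dbp, an output gene of the clock that is high when Arntl is low, was at 57.7, 25.7, 46.7 and 36.7 TPM in p16 WT RUN and 54.7, 23.0, 33.8 and 40.3 TPM in p16 KO RUN, beside 46.2 to 66.8 TPM in the sedentary libraries. Of the 14 clock genes listed, 3 were called higher and 4 lower with running in both genotypes, beside 9.87% and 8.02% of all genes. Among them Clock was higher by 0.15 (adjusted p = 0.0689) and Bhlhe41 by 0.28 (adjusted p = 0.109), while Tef fell by 0.33 (adjusted p = 0.128) and Dbp fell by 0.54 (adjusted p = 0.133). The summed level of the 14 genes was lowest in p16 WT RUN replicates 10 and 12 and p16 KO RUN replicate 14 (657 to 751 TPM, beside at least 818 in the others). Without these 3, Nr3c2 (0.20) and Zbtb16 (0.33) were the genes still called higher over both genotypes. Fkbp5 was then at 0.21, Sgk1 at 0.21 and Nr3c1 at -0.066, none of them called, so that 2 of the 9 genes were called in place of 5, while the calls over all genes numbered 2094 in place of 3097. The Sgk1 difference was then -0.051 in Set C and the interaction passed the threshold (log2 0.52). Dbp itself was then at -0.25 and not called. The part of the clock genes in the results was not tested.

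A second set of 3 libraries stood apart. The summed level of 8 nuclear-retained RNAs was 977 TPM in p16 WT CTL replicate 2 and 541 and 479 TPM in p16 KO CTL replicates 6 and 7, beside 1828 to 2533 TPM in the other 13, and Malat1 was 202, 123 and 67.1 TPM there. In p16 KO CTL Malat1 was 251 ± 186 TPM and in p16 KO RUN 619 ± 13.2 TPM (SD, n = 4 each; adjusted p = 0.201). All 8 of these RNAs had a higher mean in p16 KO RUN than in p16 KO CTL. Without the 3 libraries, 3 of the 9 genes were called with running over both genotypes: Fkbp5 was higher by 0.28, Nr3c2 by 0.29 and Sgk1 by 0.35. Zbtb16 was then at 0.23 and Nr3c1 at -0.13, neither called. In Set A 2 of the 9 were called, Sgk1 at 0.40 and Fkbp5 at 0.37, and Nr3c2 was at 0.26, not called. Over all genes the calls in Set A then numbered 1473 in place of 3196.

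Markers of cell types also moved, and their counts stand beside shares over all genes of 10.7% higher and 7.74% lower in Set A, 9.87% higher and 8.02% lower with running in both genotypes, and 6.69% in either direction in Set B. The summed level of 10 dentate granule neuron markers, Prox1 and C1ql2 among them, ranged from 751 to 1958 TPM over the libraries, with none of them at 0, and 1 of the 10 (Lct) was called higher with running in both genotypes. The range was 941 to 1958 TPM in p16 WT CTL, 1138 to 1766 in p16 WT RUN, 751 to 1532 in p16 KO CTL and 1284 to 1921 TPM in p16 KO RUN. Of 8 astrocyte markers 4 were called lower in Set A, with summed levels of 2170 to 3277 TPM in p16 KO CTL and 2189 to 2596 TPM in p16 KO RUN. Of 8 oligodendrocyte markers 5 were called lower in Set A (1494 to 2481 TPM in p16 KO CTL and 1177 to 1521 TPM in p16 KO RUN), and of 8 microglia markers 4 were called lower with running in both genotypes (431 to 507 TPM in p16 WT CTL, 417 to 465 in p16 WT RUN, 429 to 617 in p16 KO CTL and 395 to 481 TPM in p16 KO RUN). Of 8 endothelial markers 2 were called higher in Set A (Pecam1 and Tek, with 71.6 to 140 TPM in p16 KO CTL and 123 to 179 TPM in p16 KO RUN) and 3 with running in both genotypes (with Cldn5). The p16 KO CTL replicates 6 and 7, low in nuclear RNA, had 71.6 and 73.0 TPM, beside 137 and 140 TPM in replicates 5 and 8. In Set A the calls of Pecam1 and Tek held in 4 and 3 of the 8 fits that left out a library, and were as small as 0.15 and 0.17 under an alternative. With running Tek held in all 16 such fits, Pecam1 in 5 and Cldn5, as small as 0.070 under an alternative, in 8. In Set B 3 astrocyte markers (Sox9, S100b and Gfap), 1 oligodendrocyte marker (Cnp), 4 of 6 precursor markers (Olig1, Olig2, Neu4 and Gpr17) and 2 microglia markers (Tmem119 and P2ry12) were called higher in p16 KO CTL. So were the neuronal markers Pou3f1 (1.53) of 6 for CA1, Rgs14 (0.18) of 8 for CA2 and CA3, and Pvalb (0.58) and Vip (0.46) of 8 for interneurons. In Set B the difference was positive for all 6 CA1, 5 of the CA2 and CA3 and 7 of the interneuron markers. All 10 granule neuron markers had a negative difference (median -0.15), with none called. Pou3f1, Rgs14, Olig2, Neu4 and Tmem119 were called in all 8 fits that left out a library. Gpr17 was called in 5, P2ry12 in 4, Sox9, S100b, Pvalb and Vip in 3, and Gfap, Cnp and Olig1 in 2. In the interaction 2 of 6 CA1 markers (Pou3f1 and Fibcd1) were called, beside 5.48% of all genes. So was 1 of 8 in each of the CA2 and CA3 (Rgs14), interneuron (Pvalb), astrocyte (Sox9) and oligodendrocyte (Cnp) lists. Pou3f1 (-1.76), Pvalb (-0.75) and Rgs14 (-0.42) were called in all 16 fits that left out a library, and Sox9, Cnp and Fibcd1 in 10, 6 and 5. Of the CA2 and CA3 markers 3 were positive and 5 negative, and all markers of the other lists just named were negative. All 10 granule neuron and all 8 endothelial markers were positive, with none called. In Set E, beside 3.87% of all genes, 1 marker was called in each of 8 lists (adjusted p = 1.00 in limma for each). Lower in p16 KO RUN were Aqp4 of astrocytes (-1.61) and Rgs14 of CA2 and CA3 neurons (-0.24). So were Fibcd1 of CA1 neurons (-0.54) and Rgs5 of pericytes (-0.31). Higher were Gpr17 of precursors (0.43), P2ry12 of microglia (0.22), Pecam1 of endothelium (0.26) and Folr1 of choroid plexus (1.63). Differences were positive for 5 of 8 astrocyte, 4 of 8 CA2 and CA3, 1 of 6 CA1 and 3 of 7 pericyte markers. They were positive for 6 of 6 precursor, 4 of 8 microglia, 5 of 8 endothelial and 4 of 7 choroid plexus markers. Aqp4 was at 40.5 ± 38.0 TPM in p16 KO RUN and 97.0 ± 11.6 TPM in p16 WT RUN (SD, n = 4 each). Folr1 was at 0.453 and 0.0472 TPM, at the low end of what was measured. The summed level of 6 CA1 markers was 296 TPM in p16 KO CTL replicate 8, beside 83.0 to 174 TPM in the others, and that of 7 choroid plexus markers 213 TPM in p16 KO CTL replicate 7, beside 16.9 to 62.9 TPM. None of these markers was at 0 in all libraries of a group. Their part in the results of the 9 genes was not tested. Relative coverage of a library was the median, over genes of at least 1 TPM in all libraries, of coverage divided by its mean over libraries. It was 0.900 to 1.95 in p16 WT CTL and 0.914 to 1.68 in p16 KO CTL. In runners it was 0.621 to 0.877 in p16 WT RUN and 0.796 to 0.893 in p16 KO RUN. Every RUN library thus lay below every CTL library of its genotype.

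The partners that hold and release the receptors were examined as a list of 16 chaperones and coregulators. With running in both genotypes 2 were called higher and 1 lower, beside 9.87% and 8.02% of all genes, a share near that background. Crebbp, a coactivator with acetyltransferase activity, was higher by 0.20 (adjusted p = 0.203). Bag1, a cochaperone of Hsp70, fell by 0.18 (adjusted p = 0.130). Without the 3 libraries low in nuclear RNA neither was called (0.077 for Crebbp and -0.076 for Bag1). In Set A 2 were called higher and 2 lower, beside 10.7% and 7.74% of all genes. Ptges3, the p23 cochaperone of the receptor complex, fell by 0.21 there (adjusted p = 0.211) and was called without any single library, though not without the 3 low in nuclear RNA (-0.13). In the interaction Ptges3 was at -0.27 (adjusted p = 0.797), called in all 16 fits that left out a library and all 12 alternatives. In Set E Ptges3 was at -0.15 (adjusted p = 1.00), called in 6 of the 8 fits that left out a library and 12 of 13 alternatives. Bag1 was called higher in p16 KO RUN there (0.12), in 5 of the 8 fits, beside 3.87% of all genes in either direction. Bag1 was called lower in Set C (-0.22, adjusted p = 0.937), also without any single library. The Set A calls of Crebbp (0.29) and Hsp90aa1 (-0.27) held in 2 and 3 of the 8 fits that left out a library. The median over the 16 was 0.016 with running, beside 0.013 over all genes. In Set B none of the 16 was called, beside 6.69% of all genes.

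Of 11 genes of corticosteroid supply and of the stress peptide system, 9 were abundant enough to test, and 1 was called with running in both genotypes, no larger a share than the 17.9% of all genes. This was Cyp11a1, which makes pregnenolone from cholesterol, at 0.53 (adjusted p = 0.276), a call that held in 6 of the 16 fits that left out a library (0.36 to 0.64) and was lost, at 0.19, without the 3 libraries low in nuclear RNA. In Set A it was at 6.24 ± 2.86 TPM in p16 KO RUN and 2.76 ± 0.900 TPM in p16 KO CTL (log2 1.02, SE 0.341, adjusted p = 0.211), called without any single library, and at 0.68 and not called without the 3 low in nuclear RNA. In Set C none was called, beside 4.81% of all genes. In Set B Srd5a1, a steroid reductase, was at -0.56 (adjusted p = 0.625), a call that held in 4 of the 8 fits that left out a library and was lost, at -0.20, without the same 3. Crh, the releasing hormone, had group means of 1.96 to 3.00 TPM and was not called in any comparison.

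The other known targets of the glucocorticoid receptor did not move in one direction. Of 25 listed genes, 5 were called higher and 5 lower with running in both genotypes, beside 9.87% and 8.02% of all genes, and 15 were not called; the median was 0.0074, beside 0.013 over all genes. Cdkn1a, the cell cycle inhibitor p21, was the only one past an adjusted threshold, with 14.2 ± 3.84 TPM in runners and 7.99 ± 1.68 TPM in sedentary mice (SD, n = 8 each, log2 0.76, SE 0.164, adjusted p = 0.0481). Without the 3 libraries low in nuclear RNA no gene passed an adjusted p of 0.05 with running, so this adjusted call was lost there. The unadjusted Cdkn1a call held in all 12 alternatives (log2 0.58 to 0.80). Gpd1, a glycerol phosphate enzyme, was higher by 0.27 (adjusted p = 0.106) and Klf9, a transcription factor, by 0.17 (adjusted p = 0.110). Pdk4, a brake on pyruvate oxidation, fell by 0.39 (adjusted p = 0.168), a call lost without either set of 3 libraries (-0.25 and -0.29). The other calls were Lcn2 and Bcl6 higher and Dusp1, Txnip, Glul and Klf15 lower. In Set A 5 were called higher and 5 lower, beside 10.7% and 7.74% of all genes. In Set C 2 were called higher (Klf9 and Cdkn1a), beside 2.69% of all genes, and none lower. There the Cdkn1a call held in 4 of the 8 fits that left out a library (0.38 to 0.68). In Sets B and E none was called, beside 6.69% and 3.87% of all genes.

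**Figure D4:**
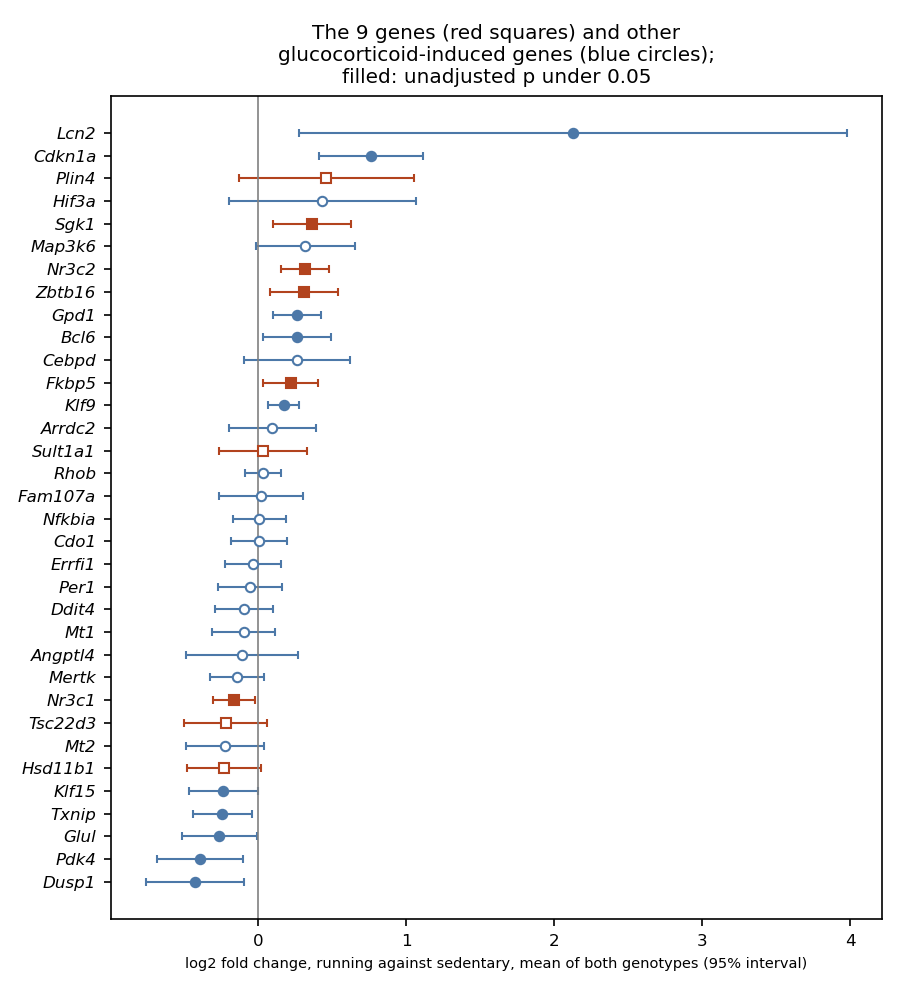
Log2 fold change with running as the mean of both genotypes (horizontal axis, with 95% interval from limma) for the 9 genes (squares) and 25 other glucocorticoid-induced genes (circles), ordered by value; filled symbols passed an unadjusted p of 0.05. Fold changes fall on both sides of 0 in either set, from -0.43 for Dusp1 to 0.76 for Cdkn1a, with Lcn2 beyond these at 2.13 from levels near 0.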

How the data were processed

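RNA-seq was measured in 16 libraries. Per the labels and the paper, bcl2fastq 2.20 came first. Cutadapt 1.11 was then used to mask adapter sequence, and ERNE to cut away adapters and bases of low quality. STAR placed the reads on mm10, and StringTie was run after it. Each deposited table gives TPM, FPKM and coverage per gene; counts were not used here, so a count model could not be the test and reads behind a value are unknown. TPM of repeated gene names was summed, scaled by the median ratio over 13226 genes of at least 1 TPM in all libraries, and log2(TPM + 0.1) was fitted with limma 3.58.1 (R 4.3.3) for the 17317 genes whose mean reached 0.1 TPM, tested on simulated data first. Fold changes are on this scale, which understates low genes. p-values were adjusted by Benjamini-Hochberg over all genes; a call is an unadjusted p under 0.05, the study's threshold. Exact permutation tests (two-sided, Python 3.11.15) used the scaled values, and correlations 100000 permutations within groups. The members and lists were chosen with earlier results of these data known. Named were the 9 genes, Cdkn2a, from each list genes past an adjusted p of 0.05 and up to 4 of smallest p, and the 3 genes most like each member; Prox1, C1ql2, Hsd11b2, Crh and other calls of a list were added after their values were seen. p-values measure the spread between these pools of animals. Alternatives were the pseudocount, filter, scaling, FPKM column, variance trend, joint fit, highest entry per name and each library left out. Leaving out 3 libraries low in nuclear or in clock RNA, and the coverage column, were added after seeing the data. A gene of the lists is not reported here.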

Additional observations from a re-analysis of the deposited data

Results flagged for a closer look

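Among the 36 combinations of gene and group, 3 held a library far from the other 3 of its group (a gap to the nearest past Dixon's 95% limit); chance gives about 1 in 20. Zbtb16 was at 54.8 TPM in p16 KO CTL replicate 5, beside 37.6 to 37.9 TPM in the other 3. Plin4 was at 2.63 TPM in p16 WT RUN replicate 10, beside 1.03 to 1.05 TPM. Hsd11b1 was at 77.9 TPM in p16 KO RUN replicate 14, beside 63.7 to 64.9 TPM. The first raises the sedentary mean of Zbtb16, the second the running mean of Plin4, and the third the running mean of Hsd11b1. Replicates 10 and 14 are among the 3 libraries lowest in clock RNA. The causes were not tested.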

How the results depend on the processing

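Of 684 values of the 9 genes under 13 alternatives, 631 kept direction and side of the threshold, 24 lost the call, 5 gained it and 24 reversed, all of these uncalled in both. The number of the 9 called fell to 2 in Set A without a filter, with all 16 libraries in one fit, without a variance trend and without the 3 libraries low in nuclear RNA (then 1473 genes in all). It fell to 1 in Set C without a trend or without either set of 3 libraries, and to 0 in Set E with the joint fit or without a trend. It rose to 1 in Set B with the joint fit (2205 genes in all) and to 1 in the interaction without the 3 clock-low libraries. With running in both genotypes it was 3 (1599 genes in all) without the nuclear-low and 2 without the clock-low libraries, and Set E then held 1827 genes, Nr3c1 among them at -0.17. Reversed values were as follows. On the deposited TPM they were Nr3c1 -0.0015, Fkbp5 -0.045 and Tsc22d3 -0.010 in Set B, Sult1a1 0.0056 in Set C, and Nr3c2 0.036 and Zbtb16 0.0099 in the interaction. With quantile normalization they were Fkbp5 -0.0070 and Plin4 0.14 in Set B, Nr3c2 0.011 in the interaction and Sult1a1 -0.0014 with running. Without the nuclear-low libraries they were Hsd11b1 0.019 in Set A, Nr3c2 0.0014, Fkbp5 -0.24 and Plin4 0.10 in Set B, Sult1a1 0.0035 in Set C, and Hsd11b1 0.14 and Fkbp5 0.19 in the interaction. Without the clock-low libraries they were Nr3c1 0.047 and Sgk1 -0.051 in Set C, Fkbp5 0.026 and Plin4 0.31 in Set E, and Fkbp5 0.012, Zbtb16 0.021 and Plin4 0.34 in the interaction. Leaving out each library gave 2 to 4 called of the 9 in Set A (2017 to 4734 genes in all), 0 to 1 in Set B (559 to 3024), 1 to 4 in Set C (537 to 1018), 0 to 2 in Set E (487 to 1041) and 4 to 7 with running, and 622 to 2378 genes in the interaction. Sult1a1 then ranged from -0.092 to 0.29 in Set A, -0.15 to 0.014 in Set B, -0.11 to 0.077 in Set C, -0.16 to 0.23 in Set E, -0.085 to 0.30 in the interaction and -0.050 to 0.14 with running. In Set B the ranges were -0.066 to 0.16 for Fkbp5, -0.037 to 0.16 for Tsc22d3, -0.25 to 0.041 for Zbtb16 and -0.27 to 0.29 for Plin4. In Set E they were -0.076 to 0.079 for Nr3c1, -0.18 to 0.014 for Nr3c2, -0.087 to 0.0024 for Fkbp5, -0.093 to 0.24 for Sgk1, -0.23 to 0.050 for Tsc22d3 and -0.32 to 0.12 for Plin4. In the interaction they were -0.14 to 0.020 for Nr3c1, -0.14 to 0.056 for Nr3c2, -0.32 to 0.0017 for Hsd11b1, -0.20 to 0.021 for Fkbp5, -0.23 to 0.065 for Zbtb16 and -0.49 to 0.15 for Plin4. The causes were not tested. No paired analysis was possible because the replicate numbers 1 to 16 are not shared between groups. Depth per value is not known, which limits Plin4 and Cdkn2a most.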

Other observations

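Immediate early genes, which neurons switch on after activity, were also listed. Of the 11, 1 was called with running in both genotypes in limma, where 17.9% of all genes were called. This was Egr3, a zinc finger transcription factor, at 122 ± 11.8 TPM in runners and 96.9 ± 10.1 TPM in sedentary mice (SD, n = 8 each; log2 0.29, SE 0.0584, adjusted p = 0.0390). Egr3 was 127 ± 7.98 TPM in p16 KO RUN and 90.3 ± 5.35 TPM in p16 KO CTL (SD, n = 4 each; log2 0.43, adjusted p = 0.0806). Npas4, an activity-dependent factor, was 6.52 ± 2.198 TPM in p16 KO RUN and 3.02 ± 2.42 TPM in p16 KO CTL. In p16 WT it was lower in runners, at 4.76 ± 1.57 TPM in RUN and 9.29 ± 4.77 TPM in CTL. Egr3 and Npas4 were both called in Set A and in the interaction (log2 0.28 for Egr3 and 2.08 for Npas4, adjusted p = 0.797 for each), and Npas4 was called lower in Set B. Over all genes 18.5% were called in Set A, 5.48% in the interaction and 6.69% in Set B. With a library left out, the Egr3 call held in 8 of 8 fits of Set A and 10 of 16 of the interaction (0.20 to 0.34), and the Npas4 call in 3 of 8 of Set A, 4 of 8 of Set B and 16 of 16 of the interaction. Without the 3 libraries low in nuclear RNA Npas4 was called in none of these (0.48 in Set A, -0.55 in Set B and 0.99 in the interaction), and neither was the Egr3 interaction (0.26). Without these 3 libraries no gene passed the adjusted threshold with running, so the adjusted Egr3 call was lost there. The unadjusted Egr3 call with running held in all 12 alternatives (log2 0.27 to 0.33). The median of the 11 was -0.026 with running, beside 0.013 over all genes.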
